A study of Mus musculus with 6 samples.

Results

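Ribosome biogenesis and tRNA charging supply the machinery of protein synthesis, and 46 genes of these systems were examined for open chromatin at their ends in bone marrow B-cells. The genes were chosen by name, as 26 genes of nucleolar proteins and 20 genes of cytosolic aminoacyl-tRNA synthetases. Every peak within 1 kb of either end of one of them in the RefSeq gene table of GRCm38 was taken, which gave 69 peaks of the 97124 in the series, 41 at nucleolar genes and 28 at synthetase genes. In all, 16776 peaks, or 17.3%, lay within 1 kb of the end of some gene, and the 16707 that belonged to no member served as background. Of the 46 members, 43 had at least 1 such peak. The other 3 were Ubtf and Nat10, described below through peaks inside their annotated ends, and Dkc1, the pseudouridine synthase of snoRNPs, on chromosome X, for which the table lists no peaks.

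The study used ATAC-seq, in which a transposase inserts sequencing adapters into open chromatin, so that the signal of a peak measures accessibility and not expression. Cells came from mice of the line labelled PEtg, which both groups share, and carried H2B-GFP, a fluorescent histone that is diluted when cells divide. H2B-GFP high cells are called quiescent in the labels (n = 3 samples) and H2B-GFP low cells proliferating (n = 3 samples). The sources used here do not give strain background, age, sex or the promoter of the transgene. Nor do they say whether each sample came from its own mouse, so the p-values rest on the spread among these 6 samples, which may in part be technical.

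RNA polymerase I transcribes ribosomal DNA in the nucleolus, and the precursor is modified by small nucleolar ribonucleoproteins (snoRNPs), cut and folded by the small-subunit processome and assembled into large subunits with the help of the PeBoW complex. Aminoacyl-tRNA synthetases join each amino acid to its tRNA, and several of them sit together in a multi-synthetase complex. The promoters of both systems are known targets of MYC, which binds the E-box CACGTG, and many synthetase genes respond to ATF4 through elements of the form TGATGNAAT when amino acids run short. Both systems are costly and are known to be more active in growing and dividing cells.

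The sequences below show the open promoters that carry these motifs. RefSeq promoter windows (GRCm38.p6, 250 bases before and 50 after each annotated start) were found for 35 of the 46 members. All 34 of them on an autosome had a peak on a window, against 42.0% of the 25748 genes on the same chromosomes. Counting both strands, CACGTG occurred in the windows of 10 of these 35 members (28.6%), against 8.09% of 27025 genes. TGATGNAAT occurred in 3 of 13 synthetase genes (23.1%) and in 0 of 22 nucleolar genes, against 1.08% of all genes. The ETS site CCGGAAGT occurred in 5 of 35 members (14.3%), against 4.31% of all genes. These motif shares are set against all genes with a promoter window, open or not. Shares among open promoters alone were not counted. A match is a description of letters and not a measured binding site. Printed are the 250 bases before the start, read 5′ to 3′ on the gene's strand, of every member with an E-box or an amino acid response element wholly before the start. Capitals mark CACGTG and TGATGNAAT on either strand.
Nop2 (chr6:125131633-125131882, + strand): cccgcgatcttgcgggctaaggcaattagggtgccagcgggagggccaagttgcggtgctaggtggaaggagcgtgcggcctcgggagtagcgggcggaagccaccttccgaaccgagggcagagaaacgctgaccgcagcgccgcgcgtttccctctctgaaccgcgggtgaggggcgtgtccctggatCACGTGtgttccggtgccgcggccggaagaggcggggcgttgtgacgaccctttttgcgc
Rrn3 (chr16:13780449-13780698, + strand): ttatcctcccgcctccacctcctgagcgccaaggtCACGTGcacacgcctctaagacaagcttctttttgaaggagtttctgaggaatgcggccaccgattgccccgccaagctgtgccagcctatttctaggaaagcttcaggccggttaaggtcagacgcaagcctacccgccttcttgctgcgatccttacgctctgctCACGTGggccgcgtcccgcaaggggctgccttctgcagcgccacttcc
Aars (chr8:111033592-111033841, + strand): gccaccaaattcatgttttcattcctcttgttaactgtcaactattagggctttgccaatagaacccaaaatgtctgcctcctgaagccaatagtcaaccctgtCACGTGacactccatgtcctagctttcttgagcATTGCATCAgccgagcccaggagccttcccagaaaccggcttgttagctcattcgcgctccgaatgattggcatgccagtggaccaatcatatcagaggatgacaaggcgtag
Farsb (chr1:78488898-78489147, - strand): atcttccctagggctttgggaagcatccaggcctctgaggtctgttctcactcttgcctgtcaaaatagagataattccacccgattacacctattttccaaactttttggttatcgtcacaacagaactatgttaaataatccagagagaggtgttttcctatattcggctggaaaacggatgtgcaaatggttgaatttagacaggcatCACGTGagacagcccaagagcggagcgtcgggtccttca
Gars (chr6:55037751-55038000, + strand): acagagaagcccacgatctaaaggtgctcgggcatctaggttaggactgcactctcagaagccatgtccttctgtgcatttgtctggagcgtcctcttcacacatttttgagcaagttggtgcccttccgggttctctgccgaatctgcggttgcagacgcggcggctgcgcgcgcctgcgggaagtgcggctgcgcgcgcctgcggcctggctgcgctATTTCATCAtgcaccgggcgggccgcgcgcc
Iars (chr13:49681880-49682129, + strand): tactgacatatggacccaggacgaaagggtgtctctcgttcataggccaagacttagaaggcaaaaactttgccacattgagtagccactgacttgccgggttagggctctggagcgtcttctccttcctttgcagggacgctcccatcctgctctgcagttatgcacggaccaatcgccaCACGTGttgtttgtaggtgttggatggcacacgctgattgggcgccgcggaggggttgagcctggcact
Rrn3 holds a pair of E-boxes, 48 and 215 bases before its start. In Aars the E-box lies 146 bases and the response element 113 bases before the start. The other sites printed lie 60 (Nop2), 39 (Farsb), 31 (Gars) and 69 (Iars) bases before the start. Iars has its response element 7 bases after the start, outside the stretch printed. The 6 stretches differ in composition, with 30 CpG in Nop2, 24 in Gars, 17 in Rrn3, 12 in Iars, 8 in Farsb and 7 in Aars.

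Of the 69 member peaks, 67 passed the filter on weak peaks and were tested, 39 at nucleolar and 28 at synthetase genes. At an adjusted p below 0.05 (limma, Benjamini-Hochberg over all 87411 tested peaks), 0 were higher and 1 was lower in quiescent cells, a weak peak at the far end of Dars. Among the other gene-end peaks 2.81% were called, 1.33% higher and 1.48% lower. The 1 member peak of 67 is a share near that background. An unadjusted p below 0.05 was reached by 5 of the 67 (7.46%), against 13.9% of the other gene-end peaks. Samples with the same number varied together, though numbers 2 and 3 could not be told apart, and the fit above ignores this. When the number was entered as a block, 4 member peaks were called, 1 higher and 3 lower. Among the other gene-end peaks 3.61% were then higher and 5.18% lower. Reads recovered from the deposited values and scaled to their totals gave 0 higher and 4 lower members (limma-voom), against 1.91% and 7.61% of other gene-end peaks. Scaled by the median of ratios they gave 1 higher and 1 lower, against 4.51% and 2.25%, and scaled by trimmed means 0 higher and 1 lower, against 4.09% and 2.63%. A p that misses the threshold does not show that accessibility was equal, so the size of each difference is given with its interval.

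The strongest peak of a member, by its mean over all 6 samples, is the measure used most below. There were 43, of which 30 lay at the annotated start, 2 at the other end and 11 at an end that the tables did not resolve. Per kb of peak, their mean signal ranged from 51.5 at Utp4 and 72.4 at Polr1c to 695 at Nop14 and 1004 at Lars. For all 43, the 95% interval of the log2 fold change, quiescent over proliferating, stayed inside 1 either way, from -0.95 at the lowest bound to 0.95 at the highest. The interval lay within 0.5 either way for 11 of them. The median log2 fold change was -0.15, against -0.10 for the strongest peaks of 10415 other genes. Between samples of the same number, quiescent was lower in all 3 pairs at 17 of 43 (39.5%), against 32.8% for other genes, and higher in all 3 pairs at 3 of 43 (6.98%), against 14%. Overlap in what follows is read over all samples, without the pairs.

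**Figure D1:**
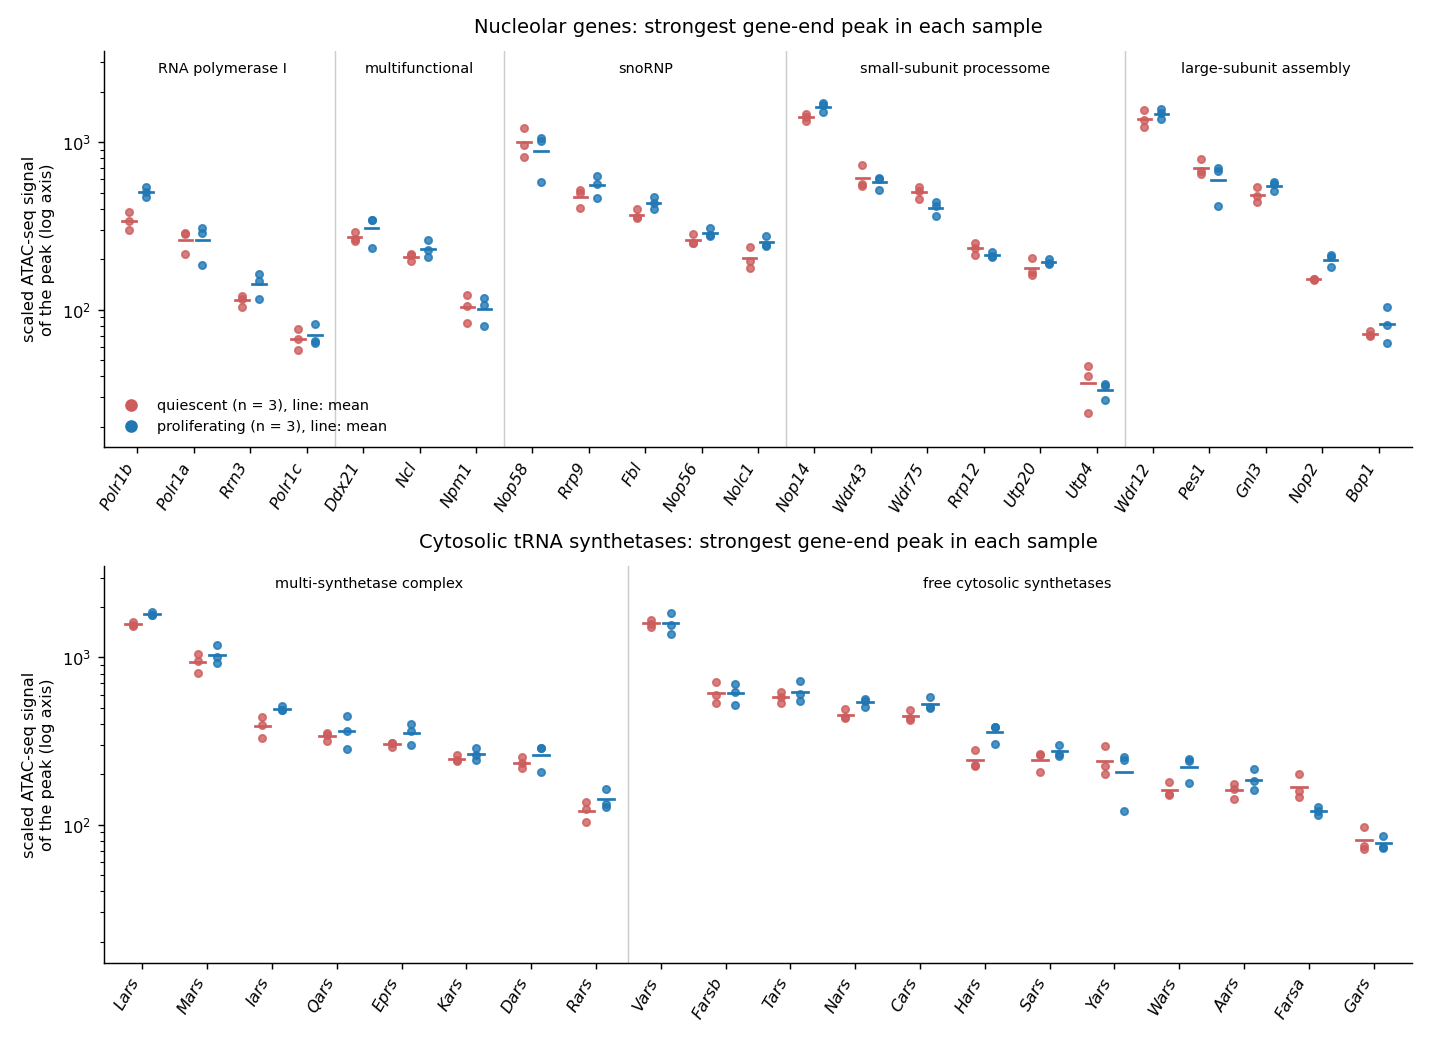
Scaled ATAC-seq signal (log axis) of the strongest gene-end peak of each of the 43 members in each sample, quiescent in red and proliferating in blue, with the group mean as a line and genes grouped by role. The groups overlap at most members, with all quiescent samples above at 2 of 43 (Wdr75, Farsa) and below at 10 of 43, against 7.49% and 19% of the strongest peaks of other genes.

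Genes of RNA polymerase I transcription came first. Polr1a encodes the largest subunit of the enzyme. Its start peak (chr6:71908404-71909668, also near Ptcd3) had 282, 285 and 216 in samples 1, 2 and 3 of quiescent cells, and 186, 288 and 308 in those of proliferating cells. The groups overlapped and the means were 261 ± 39.2 and 261 ± 65.5 (SD, n = 3 each). A second Polr1a peak, 470 bp from its other end (chr6:71979905-71980928), had 207, 211 and 387 in quiescent cells and 172, 108 and 184 in proliferating cells. Quiescent sample 3 stood well above the rest, and the groups did not overlap (log2 fold change 0.76 ± 0.30 SE, limma adjusted p = 0.158). With the replicate block its limma adjusted p was 0.0206.

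Polr1b encodes the second-largest subunit, and its strongest peak lay 737 bp from the other end of the gene, also within 1 kb of an end of Chchd5 (chr2:129128797-129130872). Signals there were 384, 337 and 299 in quiescent cells and 540, 468 and 503 in proliferating cells. Every quiescent sample lay below every proliferating one, and the log2 fold change was -0.57 ± 0.16 SE (limma adjusted p = 0.0631). With the block the adjusted p was 0.0155. At the Polr1b start itself (chr2:129100669-129101351) the values were 117, 104 and 128 in quiescent cells and 107, 108 and 124 in proliferating cells. Those groups overlapped, at a log2 fold change of 0.04 ± 0.20 SE. The peak that passed the threshold under the block was the one shared with Chchd5.

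Rrn3 encodes TIF-IA, which brings RNA polymerase I to its promoter, and its start peak covers both E-boxes printed above (chr16:13780078-13781466). It had 116, 104 and 120 in quiescent cells and 163, 115 and 149 in proliferating cells. The log2 fold change was -0.31 ± 0.21 SE and the quiescent samples overlapped proliferating sample 2. Polr1c, a subunit shared with RNA polymerase III, gave -0.06 ± 0.24 SE, at a peak also near Yipf3. Ubtf encodes UBF, which binds ribosomal DNA, and its peaks lie on RefSeq promoter windows more than 1 kb inside the ends given in the gene table. The stronger of them (chr11:102318821-102320625) had 369, 631 and 388 in quiescent cells, against 254, 333 and 332 in proliferating cells. All quiescent samples were above, quiescent sample 2 by far the highest, and the log2 fold change was 0.56 ± 0.23 SE (limma adjusted p = 0.176; with the block 0.0326).

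**Figure D2:**
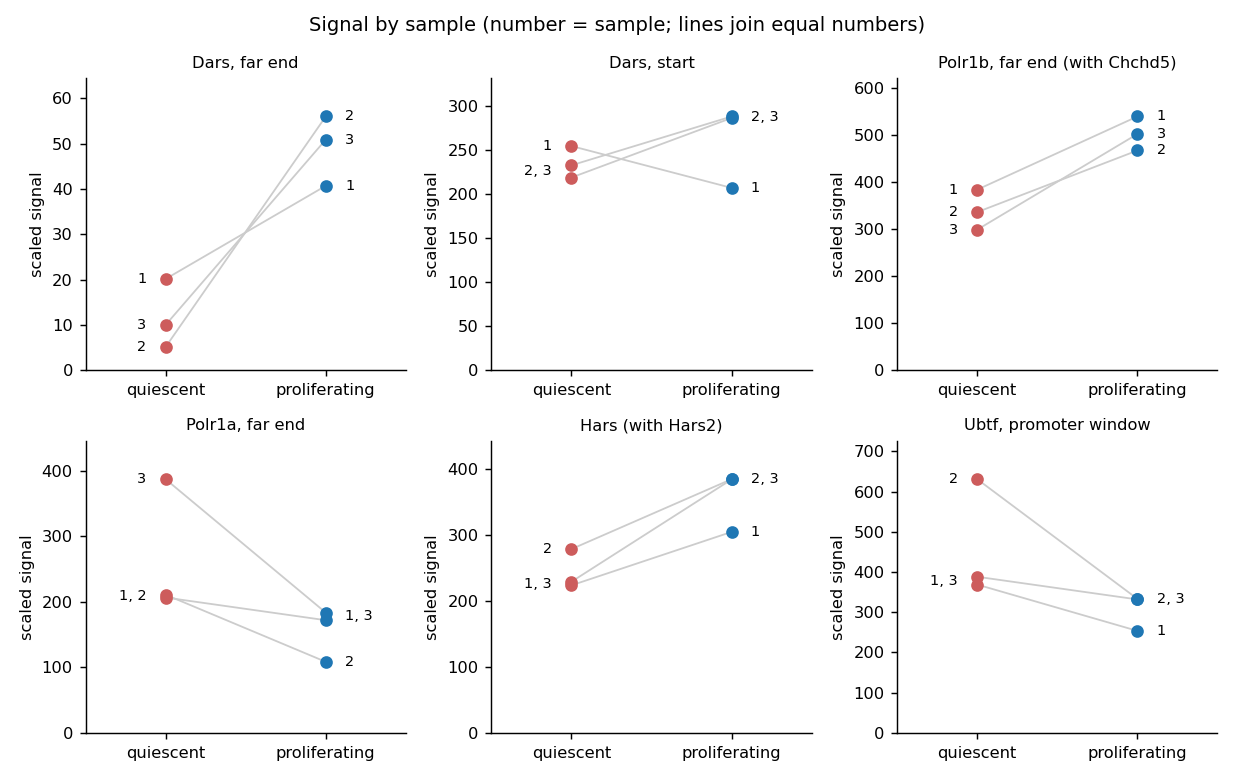
Scaled ATAC-seq signal (linear axes from 0) of 6 single peaks, quiescent left and proliferating right, with grey lines between samples of the same number. The Dars far-end peak, the Polr1b peak shared with Chchd5 and the Hars peak lie lower in every quiescent sample, the Polr1a far-end and Ubtf peaks higher, and at the Dars start the lines cross.

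Genes of the snoRNP group encode proteins of these particles or, for Nolc1, a chaperone of them. Fbl encodes fibrillarin, the methyltransferase of these particles, and its strongest peak (chr7:28168369-28170823) had 351, 356 and 398 in quiescent cells and 400, 435 and 471 in proliferating cells. The groups just failed to overlap, with a log2 fold change of -0.24 ± 0.15 SE and an adjusted p of 0.368 (limma). Nop56, a core protein of the same particles, had 251, 249 and 281 in quiescent cells and 275, 280 and 307 in proliferating cells (chr2:130273565-130275174), which overlap. Its partner Nop58 (chr1:59684358-59685745) had 822, 1217 and 959 in quiescent cells and 582, 1024 and 1066 in proliferating cells. Proliferating sample 1 was lowest and quiescent sample 2 highest there, so the log2 fold change of 0.20 ± 0.24 SE was within the spread. Nolc1 encodes Nopp140, a chaperone of snoRNPs, and had 194, 236 and 177 in quiescent cells, against 242, 239 and 276 in proliferating cells (chr19:46075433-46076575). All its quiescent samples lay below, quiescent sample 2 only narrowly (log2 fold change -0.32 ± 0.18 SE). Rrp9, a protein of the U3 snoRNP, overlapped between groups at -0.22 ± 0.17 SE, at a peak also near Parp3.

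Genes of the small-subunit processome, which matures the precursor of the small subunit, spread to both sides. Wdr75, a processome protein needed for transcription of ribosomal DNA (chr1:45794775-45796369), had the highest log2 fold change among strongest nucleolar peaks, with 513, 539 and 455 in quiescent cells and 438, 365 and 418 in proliferating cells. All quiescent samples lay above, by 0.30 ± 0.15 SE on the log2 scale (limma adjusted p = 0.252, with the block 0.157). For recovered reads its limma-voom adjusted p was 0.0467 scaled by the median of ratios, 0.0559 by trimmed means and 0.191 by totals. Rrp12, known from yeast to be needed for export of subunits, had 250, 235 and 211 in quiescent cells and 207, 222 and 209 in proliferating cells (chr19:41896011-41896637). Those ranges overlap. Utp4, Utp20 and Wdr43, further components of the processome, overlapped between groups too, with log2 fold changes of 0.09, -0.12 and 0.09. The Utp4 peak also lies near Chtf8 and Derpc. Nop14, also of the processome, has a start peak shared with Grk4 that lay lower in every quiescent sample at -0.21 ± 0.11 SE. Its sign turned with recovered reads scaled by the median of ratios (0.14) and by trimmed means (0.11). Nat10, the acetyltransferase of 18S ribosomal RNA in mammals, had an open promoter window (chr2:103760465-103761845) with 436, 432 and 504 in quiescent cells and 427, 500 and 522 in proliferating cells, which overlap.

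Assembly of the large subunit runs through Pes1, Bop1 and Wdr12, which form the PeBoW complex. Pes1 (chr11:3963257-3965305) had 644, 794 and 669 in quiescent cells and 415, 705 and 671 in proliferating cells. Proliferating sample 1 was the lowest, and the log2 fold change of 0.27 ± 0.21 SE was 0.02 without that sample. Bop1 (chr15:76476912-76477786, also near Hsf1) had 70.2, 74.7 and 69.5 in quiescent cells and 103, 63.5 and 81.1 in proliferating cells. Wdr12 (chr1:60096988-60099096, also near Carf) had 1551, 1363 and 1240 in quiescent cells and 1368, 1576 and 1504 in proliferating cells. The 3 partners thus showed no common direction beyond their spread, at log2 fold changes of 0.27, -0.18 and -0.10. Nop2, a methyltransferase of the large-subunit RNA, had a strongest peak at its other end, shared with Iffo1 (chr6:125144672-125145637). It had 153, 152 and 150 in quiescent cells and 180, 205 and 211 in proliferating cells, without overlap (log2 fold change -0.38 ± 0.17 SE, limma adjusted p = 0.217). The peak on the promoter printed above, shared with Chd4 (chr6:125131219-125132232), gave 0.06 ± 0.23 SE. Gnl3, which encodes nucleostemin, gave -0.19 ± 0.14 SE with overlap, at a peak also near Pbrm1.

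Ncl, Npm1 and Ddx21 encode abundant nucleolar proteins with several functions. Ncl, nucleolin, had 194, 214 and 213 in quiescent cells and 226, 206 and 260 in proliferating cells at its start (chr1:86358703-86360675). Npm1, nucleophosmin, had 105, 122 and 83.5 in quiescent cells and 80.0, 106 and 117 in proliferating cells (chr11:33162689-33163673). Both overlapped between groups, at log2 fold changes of -0.15 ± 0.17 SE and 0.03 ± 0.24 SE, as did Ddx21, an RNA helicase, at -0.16 ± 0.19 SE. Across all 39 tested nucleolar peaks the log2 fold changes ran from -0.57 (Polr1b) to 0.76 (Polr1a), with 25 below 0.

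The 1 called member peak lay 245 bp beyond the far end of Dars, which encodes the aspartyl-tRNA synthetase (chr1:128363122-128363462, 340 bp wide). Its signal was 20.1, 5.11 and 9.99 in quiescent cells and 40.7, 56.0 and 50.9 in proliferating cells. All quiescent samples were well below, and the peak fell to 11.7 ± 7.66 in quiescent cells, against 49.2 ± 7.79 in proliferating cells (SD, n = 3 each; log2 fold change -2.15 ± 0.49 SE, 95% interval -3.24 to -1.05, limma adjusted p = 0.0352). It is weak: the estimated reads behind it were 21, 3 and 8 for quiescent cells and 17, 96 and 145 for proliferating cells. Leaving out quiescent sample 2 or 3 or proliferating sample 2 or 3 ended the call, with limma adjusted p of 0.0918, 0.114, 0.140 and 0.126, while it held without sample 1 of either group. The log2 fold change stayed between -2.60 and -1.71 with each of the 6 samples left out. The same 4 omissions left 161, 0, 790 and 1160 calls over all tested peaks, against 5876 with all samples. The nearest gene other than Dars is Mcm6, of the replicative helicase, 3417 bp away. At the Dars start (chr1:128416289-128418011) the values were 255, 219 and 233 in quiescent cells and 207, 287 and 288 in proliferating cells, which overlap (-0.13 ± 0.19 SE).

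In mammals Dars, Eprs, Iars, Kars, Lars, Mars, Qars and Rars act within the multi-synthetase complex. The 13 tested peaks of these 8 genes all had log2 fold changes below 0, with a median of -0.22. Of other gene-end peaks 60.4% were below 0, with a median of -0.08. The 13 are not separate observations, since Kars, Dars, Qars and Rars each hold more than 1. The Kars peaks and a Qars peak also lie within 1 kb of another gene. With recovered reads 9 of the 13 lay below the median of other gene ends, whether scaled to totals, by the median of ratios or by trimmed means. The number below 0 was 13, 9 and 11 under these scalings. Iars, for isoleucine, had the lowest value among the strongest peaks of the complex, with 328, 395 and 442 in quiescent cells and 511, 487 and 482 in proliferating cells (chr13:49681470-49682793). All its quiescent samples lay below (log2 fold change -0.35 ± 0.16 SE, limma adjusted p = 0.207). Eprs, which charges glutamate and proline, had 291, 308 and 308 in quiescent cells and 299, 364 and 398 in proliferating cells, with overlap at proliferating sample 1 (chr1:185362377-185364393). Lars, for leucine, lay lower in every quiescent sample by a small step, at -0.20 ± 0.10 SE, but the sign turned with recovered reads scaled by the median of ratios (0.16) and by trimmed means (0.13). Mars, Kars, Qars and Rars, for methionine, lysine, glutamine and arginine, overlapped between groups at their strongest peaks, at -0.15, -0.08, -0.09 and -0.23.

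The other 12 synthetases act outside that complex, and 8 of their 15 tested peaks were below 0. Hars, for histidine, shares its promoter region with the mitochondrial enzyme gene Hars2 (chr18:36782716-36783910), and had 224, 278 and 229 in quiescent cells and 304, 384 and 384 in proliferating cells. All quiescent samples were below, with a log2 fold change of -0.55 ± 0.18 SE (limma adjusted p = 0.0975; with the block 0.0274). Wars, for tryptophan, had 152, 152 and 180 in quiescent cells and 177, 240 and 247 in proliferating cells (chr12:108893115-108894775, also near Wdr25). Quiescent sample 3 overlapped proliferating sample 1, at -0.44 ± 0.20 SE and a limma adjusted p of 0.215. Nars, for asparagine, had 432, 493 and 439 in quiescent cells and 509, 549 and 567 in proliferating cells (chr18:64515635-64517603), without overlap at -0.25 ± 0.14 SE. Cars, for cysteine, was below in every quiescent sample too, at -0.23 ± 0.14 SE, while Sars and Tars, for serine and threonine, overlapped at -0.17 and -0.11.

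On the other side stood Farsa, the catalytic chain of the phenylalanine enzyme (chr8:84856497-84857563), with 159, 202 and 146 in quiescent cells and 115, 127 and 120 in proliferating cells. All quiescent samples lay above, by 0.47 ± 0.20 SE on the log2 scale (limma adjusted p = 0.193). Its partner chain Farsb, whose promoter is printed above, overlapped between groups, with 537, 716 and 596 in quiescent cells and 518, 618 and 698 in proliferating cells (chr1:78488133-78490578; 0.01 ± 0.17 SE). Yars, for tyrosine, had 225, 296 and 202 in quiescent cells and 121, 242 and 256 in proliferating cells (chr4:129189516-129190801, also near S100pbp). Proliferating sample 1 was lowest there. Vars, for valine, whose peak is the widest at 4739 bp and also near D17H6S56E-5, gave 0.01 ± 0.13 SE.

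The 3 synthetase genes with an amino acid response element in the window were Aars, Gars and Iars, and none passed the threshold. Aars, for alanine, had 448, 508 and 488 in quiescent cells and 406, 561 and 598 in proliferating cells at the promoter window printed above (chr8:111033255-111034644; -0.10 ± 0.18 SE). A second Aars peak, at the start in the gene table (chr8:111027105-111028353), had 176, 143 and 163 in quiescent cells and 161, 183 and 214 in proliferating cells. That second peak lies inside Ddx19b, 3398 bp from its nearest end. It stands for Aars among the strongest gene-end peaks, although its mean signal is 173, against 501 at the promoter window. Gars, for glycine, had 71.7, 96.7 and 74.3 in quiescent cells and 74.2, 73.1 and 85.9 in proliferating cells (chr6:55037570-55038215; 0.05 ± 0.23 SE). Aars and Gars overlapped between groups at each of these peaks. At Iars, above, the groups did not overlap.

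**Figure D3:**
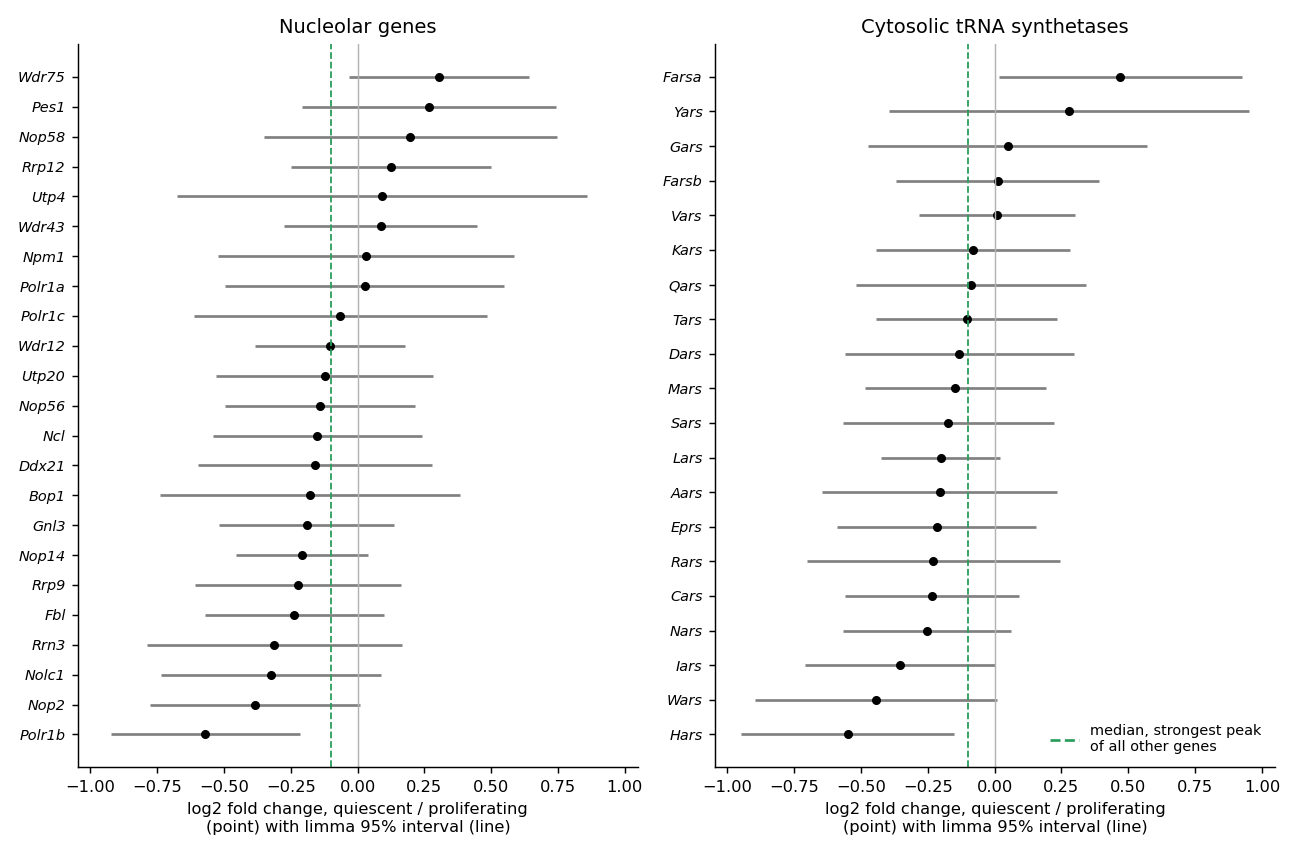
Log2 fold change, quiescent over proliferating, of the strongest gene-end peak of each member, with limma 95% intervals as lines and the median of other genes' strongest peaks (-0.10) dashed in green. Points run from -0.57 (Polr1b) to 0.30 (Wdr75) for nucleolar genes and from -0.55 (Hars) to 0.47 (Farsa) for synthetases. No point passed the adjusted threshold, and 30 of 43 lie below 0, against 64.3% of the strongest peaks of other genes. With recovered reads scaled by the median of ratios or by trimmed means, 25 and 27 of 43 lie below 0.

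As groups, nucleolar genes had a median log2 fold change of -0.12 over 39 peaks and synthetases -0.19 over 28, against -0.08 over 15757 other gene-end peaks. Below 0 lay 25 of 39 nucleolar and 21 of 28 synthetase peaks. Of the 41 nucleolar peaks 17 lie within 1 kb of another gene too, and without those peaks the nucleolar median was -0.01. Without the 9 such peaks of synthetases theirs was -0.20. Scaling recovered reads to the library totals shifted the median over the 87411 tested peaks to -0.27. Relative to other gene ends the nucleolar median was then -0.01 and the synthetase median -0.03, in place of -0.04 and -0.11 with the deposited signal. Recovered reads scaled by the median of ratios, and likewise by trimmed means, gave -0.01 and -0.02. With the deposited signal, a log2 fold change below -0.5 was seen in 2.56% of nucleolar, 10.7% of synthetase and 10.3% of other peaks. The quiescent samples lay wholly above at 3 and wholly below at 12 of the 67 tested member peaks, against 8.12% and 16.6% of the other gene-end peaks.

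**Figure D4:**
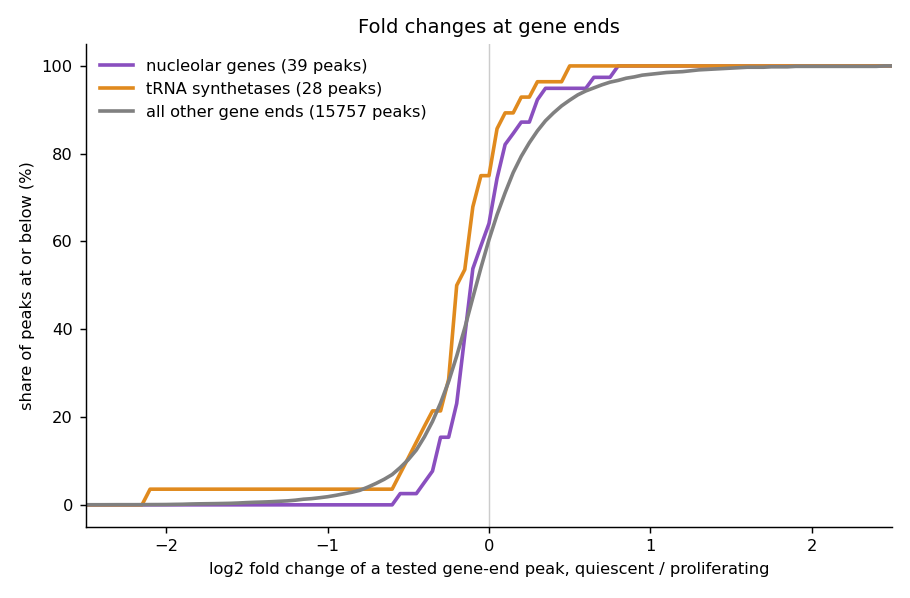
Cumulative share of tested gene-end peaks (%) by log2 fold change, quiescent over proliferating, for nucleolar genes (purple), synthetases (orange) and all other gene ends (grey). The medians are -0.12, -0.19 and -0.08, and the orange step at the far left is the Dars far-end peak at -2.15.

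The same lists were read sample by sample. The median deviation of the members' strongest peaks from their mean over samples was -0.12, 0.02 and -0.08 for quiescent cells, samples 1, 2 and 3, and -0.08, 0.07 and 0.22 for proliferating cells. For other genes it was -0.07, -0.02 and -0.04 for quiescent cells and -0.04, 0.05 and 0.15 for proliferating cells. Proliferating sample 3, the deepest library, was highest in both, and proliferating sample 1, the shallowest, lay among the quiescent samples. The part of depth in these medians was not tested.

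**Figure D5:**
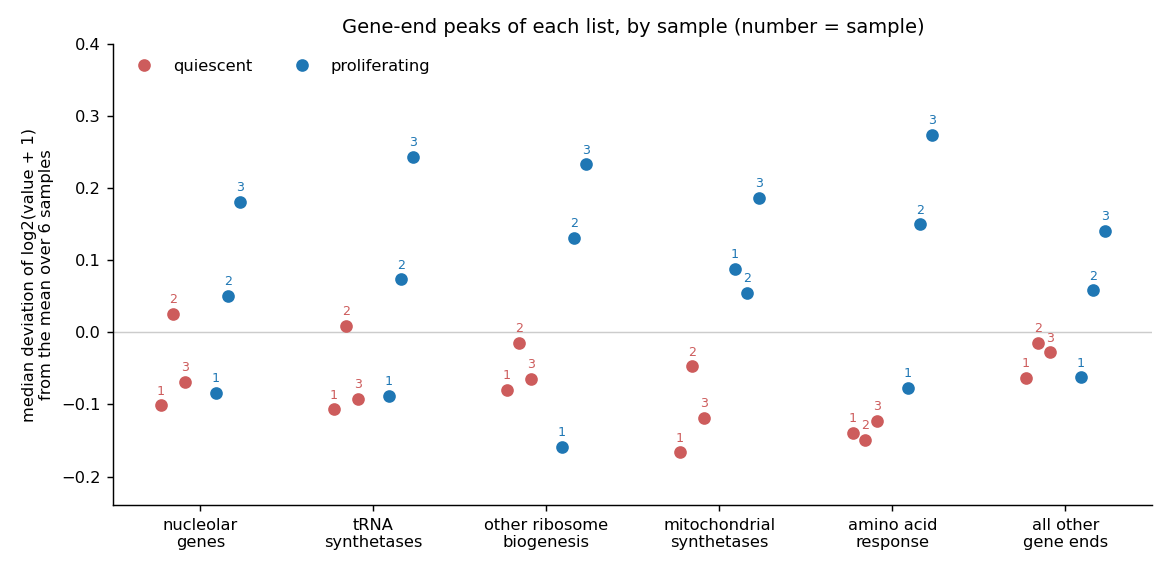
Median deviation of log2(value + 1) from the mean over 6 samples, for the tested gene-end peaks of each list, quiescent in red left of proliferating in blue, numbered by sample. Proliferating sample 3 is the highest point of each of the 6 lists, at 0.18 for nucleolar genes, 0.24 for synthetases and 0.14 for all other gene ends.

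Wider lists of the same systems were read in the same way. Of 76 other ribosome biogenesis genes, 73 had a gene-end peak, and of 102 tested peaks 0 were called in either direction with a median of -0.13. An unadjusted p below 0.05 was reached by 8 of them (7.84%), against 13.9% of the background, and 4 were lower with the block. Of 20 genes for mitochondrial synthetases and the scaffolds of the complex, 19 had a peak, and 1 of 29 was called, against the 1.48% called lower in the background, a weak lower peak near Lars2, the mitochondrial leucine enzyme. In this list 7 of 29 (24.1%) reached an unadjusted p below 0.05, 3 were lower with the block, and 24 were below 0, with a median of -0.19. That peak fell to 23.5, 31.4 and 29.7 in quiescent cells, against 75.8, 58.6 and 55.2 in proliferating cells (chr9:123367586-123367950; log2 fold change -1.13 ± 0.29 SE, limma adjusted p = 0.0481). Of 19 genes of the amino acid response, 16 had a peak, and 20 of 21 tested peaks were below 0 (median -0.21). Called lower were 2, both at the single gene Psat1, against 1.48% of the background. In this list 4 of 21 (19.0%) reached an unadjusted p below 0.05, against 13.9% of the background, and 3 were lower with the block. For each of these lists, the background had 60.4% of peaks below 0 (median -0.08) and 5.18% lower with the block. Psat1 encodes an aminotransferase of serine synthesis. Its stronger peak fell to 1044, 938 and 904 in quiescent cells, against 1284, 1485 and 1367 in proliferating cells (chr19:15902713-15904805; log2 fold change -0.52 ± 0.12 SE, limma adjusted p = 0.0377). The other, at the opposite end of Psat1, fell to 334, 298 and 283 in quiescent cells, against 424, 533 and 550 in proliferating cells (chr19:15923336-15925765; -0.71 ± 0.16 SE, limma adjusted p = 0.0372). The groups were apart at each of these 3 peaks, but the peaks are printed because they were called, so this adds no support. Of the other gene-end peaks 16.6% lay wholly lower in quiescent cells.

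All 10 B-lineage markers had a gene-end peak, summing to 21515 to 23679 in quiescent and 22081 to 26628 in proliferating samples. Of 10 myeloid markers 5 had one, summing to 1454 to 1612 in quiescent and 859 to 1044 in proliferating samples, with Csf1r and Ly6c2 called higher in quiescent cells. Elane, Mpo, Cebpe, S100a8 and Csf3r had none. Of 9 T and NK markers 6 had one, summing to 3198 to 3595 in quiescent and 2880 to 3077 in proliferating samples, with Klrb1c called higher, and Cd3e, Cd3g and Ncr1 had none. Of 7 erythroid and megakaryocyte markers 3 had one, summing to 1251 to 1379 in quiescent and 1235 to 1384 in proliferating samples. The part of other cell types in the values of the members was not tested. Reads in peaks, estimated from the deposited values, numbered 14022000 to 28253000 in quiescent and 8040000 to 48379000 in proliferating samples, and the median strongest member peak held 192 to 337 reads in quiescent and 102 to 836 in proliferating samples.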

How the data were processed

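Accessibility was measured by ATAC-seq in 3 quiescent and 3 proliferating samples, each sequenced in 2 runs per the labels' protocols. Bowtie2, SAMtools, MACS2 and the build mm10 are named, without versions of the tools, in the submitters' processing notes. The sources used here do not say how reads were counted and scaled. The authors deposited a scaled signal for each of 97124 peaks in each sample, summing to 20904407 to 21518630. Low values lay on steps of 1 read whose size changed with peak strength. Reads were recovered from these steps, and 97.0% to 100.0% of a sample's values between 1 and 1000 reads were whole, to a tolerance of 0.1. This depth bounds counting precision.

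Peaks above the lowest 10% by mean (87411) were fitted with limma 3.58.1 in R 4.3.3 on log2(value + 1) with an intensity trend, quiescent minus proliferating, Benjamini-Hochberg adjusted, and called at 0.05. This scale understates changes of weak peaks. The count test planned for this fit does not suit a scaled signal and was replaced. Recovered reads were fitted with limma-voom as alternatives. Scripts were tested on simulated data. Python 3.11.15 was used otherwise.

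Deviations from group means correlated between same-numbered samples (0.43, 0.29 and 0.21 for samples 1, 2 and 3). All were above 0.1, the minimum set for reading the numbers as pairs. The main fit, with its SEs, intervals and adjusted p, still ignores the pairs, and the block is an alternative to it. Quiescent sample 2 also correlated with proliferating sample 3 (0.22) and quiescent sample 3 with proliferating sample 2 (0.15), so the data do not tell numbers 2 and 3 apart.

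Members and lists were chosen with earlier results of these data known. Per-sample values are given for called peaks, the 4 highest and 4 lowest strongest peaks of each group, and 15 members named in the rule. Other peaks with per-sample values were chosen after their values were seen. Gene ends came from the GRCm38.p6 RefSeq table, which has no strand, so starts were taken from the promoter table where it lists the gene. Sequences are from RefSeq. No peaks on chromosome X were listed. The result for 1 marker gene is not reported here. Alternatives were another pseudocount, no filter, other windows and scalings, the replicate block and each sample left out.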

Additional observations from a re-analysis of the deposited data

How the results depend on the processing

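Among member peaks the deposited signal gave 0 higher and 1 lower call, among all tested peaks 3501 and 2375, and among all gene-end peaks 209 and 234. With the replicate number as a block these were 1 and 3, 8885 and 7114, and 570 and 819, and the member calls added were Polr1a, Polr1b and Hars, with no other member call changed. Recovered reads scaled to their totals gave 4 lower member calls (Dars, Hars, Polr1b, Wars), 8980 lower tested peaks and 1203 lower gene-end peaks, with medians of -0.32 for nucleolar, -0.33 for synthetase and -0.32 for strongest peaks. Scaled by the median of ratios they gave 1 higher member call (Wdr75), 7846 and 3785 tested peaks and 711 and 356 gene-end peaks higher and lower, and by trimmed means 7311 and 4195, and 645 and 416. Both were chosen after seeing the data, and replace the planned edgeR and DESeq2 fits, which were not run because the deposited unit is a scaled signal. A 3 kb window (98 member peaks tested) gave 487 higher and 428 lower gene-end peaks. Peaks overlapping an end gave 102 and 116 and 0 lower member calls, and promoter windows 0 lower, since the Dars far-end peak is in neither. Without peaks shared with a gene that is no member the nucleolar median was -0.0058. With each sample left out in turn, member calls ranged from 0 to 0 higher and from 0 to 2 lower, tested peaks from 0 to 5572 and from 0 to 3077, and gene-end peaks from 0 to 298 and from 0 to 366. Without quiescent sample 3, 0 of all peaks were called. The medians ranged from -0.16 to -0.06 for nucleolar, -0.26 to -0.09 for synthetase and -0.20 to -0.09 for strongest peaks. The cause of these changes was not tested. A pseudocount of 5 and no filter changed no member call.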
